A study of Homo sapiens with 12 samples.

Results

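The replication-dependent histone genes were followed through the knock-down of 3 regulators of mRNA export in U2OS cells, a human osteosarcoma line. Members were all probes whose accession maps in RefSeq to H1-1 through H1-6 or to a clustered H2A, H2B, H3 or H4 gene, a rule that uses gene names and no measured value. In all, 75 of the 34127 probes on the array met it, and they stand for 66 of 27522 gene names: 6 H1, 16 H2A, 18 H2B, 12 H3 and 14 H4 genes. A probe whose accession has no RefSeq symbol was named by that accession, so the counts of all genes can include such accessions. By the members' older names, 55 of the 66 lie in the HIST1 cluster, 8 in HIST2, 2 in HIST3 and 1 in HIST4. H2AC2P among the members is a pseudogene.

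Cells were transfected with 20 nM control siRNA, or with the same dose of DBP5, GLE1 or IPPK siRNA, using Lipofectamine2000, and were cultured for 48 h. DBP5 (DDX19) is the RNA helicase that releases export factors from mRNA at the nuclear pore, GLE1 is its activator, and IPPK makes the inositol hexakisphosphate that joins DBP5 to GLE1. Cytoplasmic RNA of 3 independent experiments per siRNA was hybridised to 1-colour Agilent arrays, 12 in all, so every group shares the line, the transfection and the fractionation. For DBP5 the study names a single siRNA, and which of the control, GLE1 and IPPK siRNAs was put on the arrays is not given in the sources used here.

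Cells build the bulk of their nucleosomes in S phase, and the replication-dependent genes supply the protein. H2A, H2B, H3 and H4 form the core of the nucleosome and H1 binds the linker DNA. Their short mRNAs have no introns and end in a conserved stem-loop in place of a poly(A) tail. SLBP binds the stem-loop, the U7 particle directs the cut behind it, and NPAT drives transcription when S phase starts. Some of the genes, H2BC12, H2BC5, H2AC6 and H1-2 among them, are also known to give polyadenylated mRNA. DBP5 has a known tie to these mRNAs through MIF4GD (SLIP1), a partner of SLBP.

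Many H2A and H2B genes stand back to back and are transcribed outwards from the same short stretch of DNA. The promoters below show that arrangement and the elements that the classes share. They come from RefSeq's promoters of build GRCh38.p14, reach from 250 bases before the start of each gene to 50 bases after it, and lie on chromosome 6. Capitals mark the octamer ATTTGCAT, to which POU2F1 binds, the CCAAT box and the TATA box TATAAA, each searched on both strands, and neighbouring matches can run together. H2AC14 (chr6:27814728-27815027, minus strand) and H2BC14 (chr6:27814772-27815071, plus strand) are such a pair, and 256 bases of their windows are the same DNA read from opposite ends.
H2AC14: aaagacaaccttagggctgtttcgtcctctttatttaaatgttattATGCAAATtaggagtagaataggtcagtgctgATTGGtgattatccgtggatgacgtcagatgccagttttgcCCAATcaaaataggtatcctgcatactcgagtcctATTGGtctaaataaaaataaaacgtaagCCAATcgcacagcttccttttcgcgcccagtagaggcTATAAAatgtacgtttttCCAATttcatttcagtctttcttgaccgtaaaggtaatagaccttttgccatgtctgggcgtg
H2BC14: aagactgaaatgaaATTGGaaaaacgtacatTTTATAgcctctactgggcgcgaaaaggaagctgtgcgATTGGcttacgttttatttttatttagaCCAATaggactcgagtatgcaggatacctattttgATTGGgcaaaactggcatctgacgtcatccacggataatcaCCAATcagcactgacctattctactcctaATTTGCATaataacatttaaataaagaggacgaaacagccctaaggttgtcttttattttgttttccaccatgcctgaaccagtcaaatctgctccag
H2BC12 (chr6:27146809-27147108, minus strand) is shown as the H2B gene with the largest rise, H2AC1 (chr6:25726513-25726812, minus strand) as an H2A gene that fell along with its H2B neighbour, and H1-1 (chr6:26017738-26018037, minus strand) as the member with the largest fall.
H2BC12: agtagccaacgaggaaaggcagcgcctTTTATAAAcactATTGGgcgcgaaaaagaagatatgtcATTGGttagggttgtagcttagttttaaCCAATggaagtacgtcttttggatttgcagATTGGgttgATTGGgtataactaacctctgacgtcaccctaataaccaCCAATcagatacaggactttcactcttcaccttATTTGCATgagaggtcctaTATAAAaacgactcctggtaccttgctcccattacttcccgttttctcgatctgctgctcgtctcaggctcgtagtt
H2AC1: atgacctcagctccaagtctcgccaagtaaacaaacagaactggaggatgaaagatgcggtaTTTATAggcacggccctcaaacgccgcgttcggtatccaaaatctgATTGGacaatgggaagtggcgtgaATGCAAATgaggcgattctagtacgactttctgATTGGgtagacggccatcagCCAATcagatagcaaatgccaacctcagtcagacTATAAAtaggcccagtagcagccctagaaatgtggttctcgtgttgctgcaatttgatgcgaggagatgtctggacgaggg
H1-1: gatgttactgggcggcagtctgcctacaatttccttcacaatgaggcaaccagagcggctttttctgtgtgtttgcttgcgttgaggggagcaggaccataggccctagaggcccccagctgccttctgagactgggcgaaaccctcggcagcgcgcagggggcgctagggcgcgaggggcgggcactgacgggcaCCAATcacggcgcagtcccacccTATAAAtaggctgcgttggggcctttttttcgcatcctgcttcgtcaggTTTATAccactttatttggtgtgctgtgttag
Of the 66 members, 60 have a promoter in the table. The octamer was in 10 of 14 H2A and 14 of 18 H2B promoters, in 1 of 10 H3 promoters and in none of 6 H1 and 12 H4 promoters, against 1.76% of 34796 distinct promoters of all genes. A CCAAT box was in 51 of the 60, among them all H1, H2A, H2B and H3 promoters but only 3 of 12 H4 promoters, against 34.6% of all. TATAAA was in 39 (65.0%), against 11.6%. The letters TTTGGCGC and TTTCCCGC, which E2F factors can bind, were in 0 and 1 of the 60 member promoters, against 0.652% and 1.63% of all.

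The siRNA labels were borne out by their targets. DDX19B, the gene of DBP5, measured 10.24, 10.13 and 10.14 in normalised log2 intensity on the control arrays and 6.26, 6.19 and 6.19 after DBP5 siRNA, and its near-identical copy DDX19A, which the siRNA or the probe may not tell apart from it, fell by 4.20. GLE1 fell by 3.29 after GLE1 siRNA and IPPK by 2.43 after IPPK siRNA. The targets were not independent of one another, since IPPK also fell by 1.25 after DBP5 siRNA and by 0.26 after GLE1 siRNA, GLE1 fell by 0.49 after IPPK siRNA (-0.36 after DBP5, adjusted p 0.0650), and DDX19B fell by 1.00 and DDX19A by 0.85 after GLE1 siRNA, and DDX19B by 0.20 and DDX19A by 1.73 after IPPK siRNA. From 70.9% to 77.7% of probes were well above background on each array, with the lowest shares after IPPK siRNA. Of 9 mesenchymal markers, 8 were well above background on all 12 arrays, and so were 2 of 3 epithelial, 1 of 4 haematopoietic and 2 of 3 endothelial markers. Of the 19 markers, 5, 2 and 8 were lower and 3, 5 and 2 higher after DBP5, GLE1 and IPPK siRNA (26.3%, 10.5% and 42.1% lower against 27.1%, 30.4% and 28.2% of all genes, and 15.8%, 26.3% and 10.5% higher against 27.3%, 32.0% and 27.3%). Of the 3 epithelial markers, 2 were lower and 1 higher after DBP5 and IPPK siRNA and 2 were higher after GLE1. The part of these markers in the histone values was not tested.

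To be tested, a gene's brightest probe had to be well above background on every array of some siRNA group, a rule met by 62 of the 66 members: 4 H1, 14 H2A and all 18 H2B, 12 H3 and 14 H4 genes. Differences are log2 of the knock-down minus log2 of control, and a call is a Benjamini-Hochberg adjusted p under 0.05 by limma over all 20821 tested genes. H1-6, H2AC16 and H2AC25 were not well above background on any array, and H1-5 was on 1, so nothing is said of their change. After GLE1 siRNA 54 of the 62 members were lower (30.4% of all genes were) and 2, H1-2 and H2AC19, were higher (32.0% of all). After DBP5 siRNA 40 were lower (27.1% of all) and 8 higher (27.3%), H2AC19 and 7 H2B genes. After IPPK siRNA 35 were lower (28.2%) and 10 higher (27.3%), H1-2, H2AC19 and 8 H2B genes. In all 3 knock-downs 33 members fell, which is 53.2% of the tested ones against 12.3% of all genes. A fall of at least 1.5-fold, with no test, was seen in 21 members after DBP5 siRNA (12.5% of all genes), 46 after GLE1 (17.5%) and 6 after IPPK (13.3%), and a rise of that size in none, against 13.0%, 17.0% and 13.5% of all genes. The median difference of the members was -0.78 after GLE1, -0.44 after DBP5 and -0.22 after IPPK siRNA. That of all genes was -0.02, 0.03 and -0.03 in the order DBP5, GLE1, IPPK. Normalization brings the arrays to a common level, so small all-gene medians were set in advance. All differences are relative to the other RNA on the arrays, and a loss shared by most cytoplasmic RNA would not show. The share of cells that were in S phase and the amount of histone mRNA per cell cannot be told apart in these bulk samples.

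The fall ran through H2A, H3 and H4, and for H2B it was seen after GLE1 siRNA. Together, 33 of 40 tested H2A, H3 and H4 genes were lower after DBP5 siRNA, 37 after GLE1 and 31 after IPPK, which is 82.5%, 92.5% and 77.5% of them against 27.1%, 30.4% and 28.2% of all genes. By the methods' paired t-test with adjustment these counts were 9, 34 and 15. The share of all genes called by that test was not counted, so its counts here and below have no all-gene share beside them. Of the 18 H2B genes, 4 were lower (22.2%) and 7 higher (38.9%) after DBP5 siRNA and 3 were lower (16.7%) and 8 higher (44.4%) after IPPK siRNA, to be read against the 27.1% and 27.3% of all genes lower and higher after DBP5 and the 28.2% and 27.3% after IPPK. After GLE1 siRNA 15 H2B genes were lower (83.3%) and 0 higher, against 30.4% and 32.0% of all genes, with 0 higher also at an unadjusted p under 0.05 and by the methods' t-test. In H3 and H4 the count of genes called higher was 0 in every knock-down by limma. At an unadjusted p under 0.05 it was 1, H4C5 after IPPK siRNA, with a difference of 0.21 that passed when the replicate number was a block in the fit (adjusted p 0.0317). By the methods' t-test with adjustment it was 0.

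**Figure D1:**
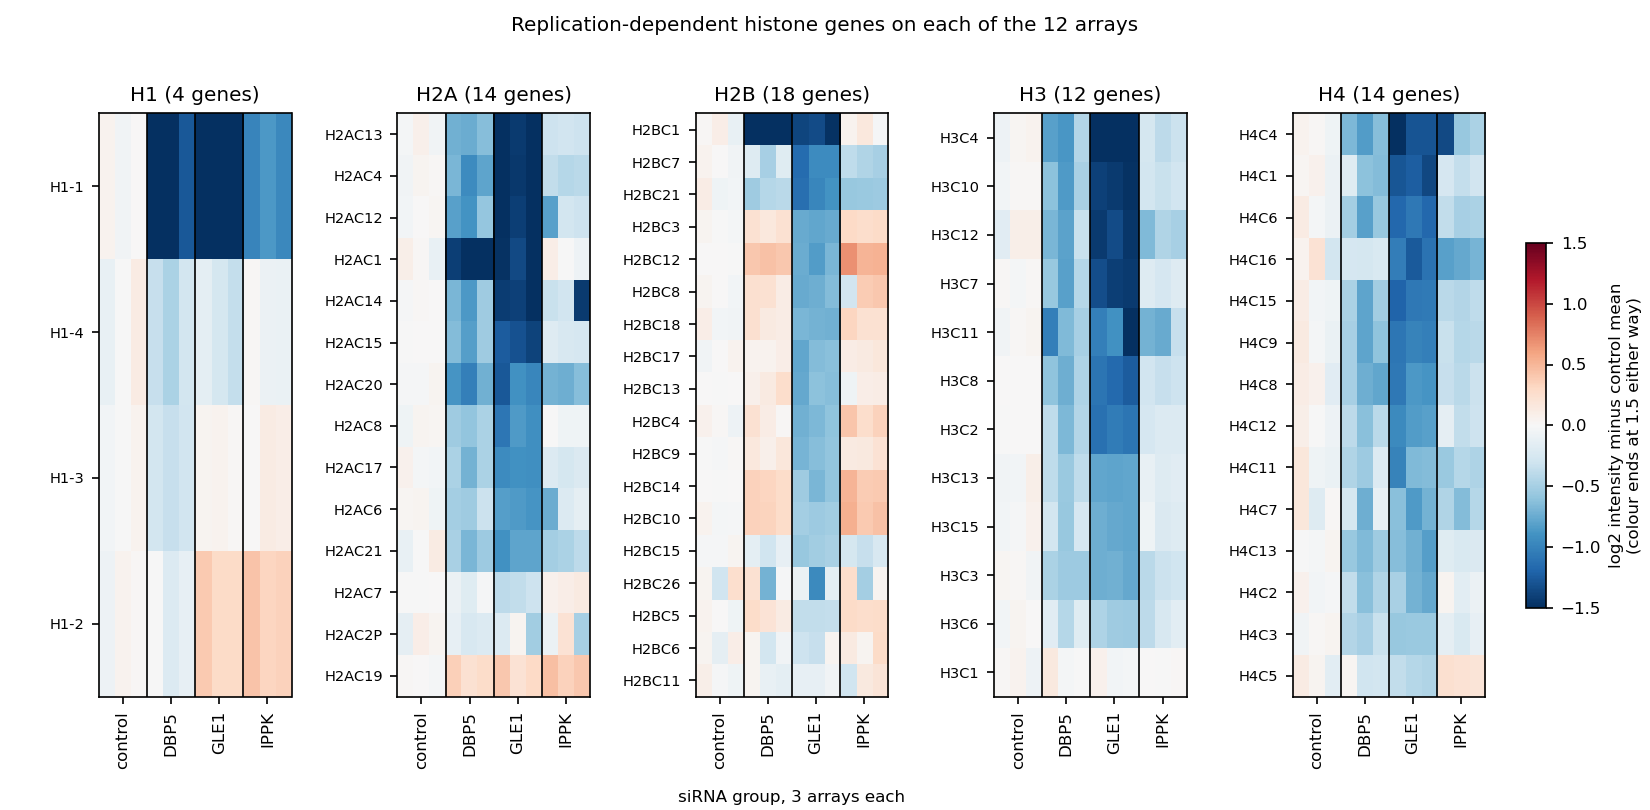
Colour shows, for each of the 62 tested genes (rows, by class) on each of 12 arrays (columns, 3 per siRNA), the normalised log2 intensity minus the mean of the 3 control arrays, and genes are ordered by their difference after GLE1 siRNA. Most H2A, H3 and H4 genes are blue in all knock-downs and darkest after GLE1, with H2AC19 and H3C1 as plain exceptions, while H2B is blue after GLE1 and mostly pale red after DBP5 and IPPK.

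Replicates kept to this order. The median over the 14 H2A genes, as a difference from the control mean, was -0.59, -0.72 and -0.54 on the DBP5 arrays, -1.16, -0.91 and -0.95 on the GLE1 arrays and -0.26, -0.25 and -0.28 on the IPPK arrays. For the 12 H3 genes it was -0.52, -0.67 and -0.43, then -1.06, -0.98 and -1.17, then -0.27, -0.29 and -0.24. For the 14 H4 genes it was -0.45, -0.65 and -0.49, then -1.02, -0.85 and -0.85, then -0.34, -0.41 and -0.35. In these 3 classes the arrays of the knock-downs do not overlap, with GLE1 lowest and IPPK nearest to control.

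For the 18 H2B genes the median was 0.19, 0.09 and 0.11 on the DBP5 arrays, -0.71, -0.67 and -0.61 on the GLE1 arrays and 0.14, 0.15 and 0.22 on the IPPK arrays. The sign was the same on all 3 arrays of each knock-down, and the DBP5 and IPPK arrays overlap. Within each slide, which held 1 array of each siRNA, the H2B median stayed above 0 for DBP5 (0.15, 0.09 and 0.13) and IPPK (0.15, 0.17 and 0.23). The rises were small, and with scaling to the 75th percentile the H2B median was 0.09 after DBP5 and 0.08 after IPPK siRNA. They are relative to the other RNA on each array, and absolute amounts were not measured.

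**Figure D2:**
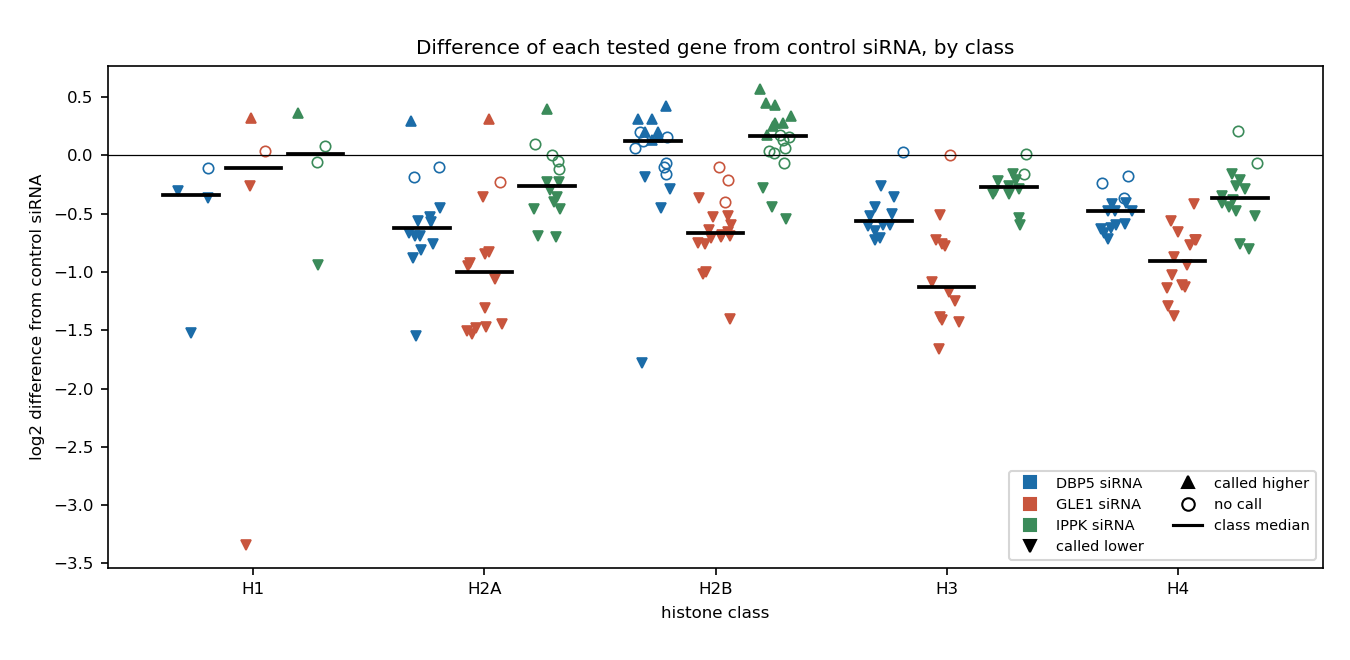
Each symbol is 1 of the 62 tested genes, with its log2 difference from control siRNA on the vertical axis, the class on the horizontal axis, the knock-down in colour, the call as the symbol's shape and the class median as a bar. The H2B medians are 0.13, -0.67 and 0.16 after DBP5, GLE1 and IPPK siRNA, and the lowest point is H1-1 after GLE1 siRNA at -3.34.

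The knock-downs were also tested against each other. GLE1 siRNA left 52 of 62 members lower than IPPK siRNA did (29.6% of all genes) and 0 higher (31.2% of all), which was 54 and 0 at an unadjusted p under 0.05 and 43 and 0 by the methods' t-test after adjustment. With the mean of a gene's probes 1 member was higher. Against DBP5, 44 members were higher after DBP5 than after GLE1 siRNA (27.2% of all) and 3 were lower (27.7%), namely H1-2, H1-3 and H2BC1. DBP5 siRNA left 27 members lower than IPPK siRNA (24.4%) and 1, H4C16, higher (24.7%). By the methods' t-test with adjustment, the 44 became 14 and the 27 became 9. The shares above are those of limma, and none were counted for the t-test. The 43 members that were below both other knock-downs after GLE1 siRNA make up 69.4% of those tested, against 19.5% of all genes.

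Among the linker histones, which compact chromatin between nucleosomes, H1-1 had the largest fall of any member after GLE1 and IPPK siRNA. After DBP5 siRNA H2BC1 and H2AC1 fell further. H1-1 measured 15.64, 15.53 and 15.59 on the control arrays, 14.05, 13.82 and 14.31 after DBP5 siRNA, 12.22, 12.39 and 12.12 after GLE1 siRNA and 14.60, 14.72 and 14.62 after IPPK siRNA. No 2 groups overlap, and the order is control, IPPK, DBP5, GLE1. It fell by 3.34 (SE 0.11, adjusted p 2.73e-09) after GLE1 siRNA, which is 10.1-fold, by 1.52 (adjusted p 1.26e-06) after DBP5 and by 0.94 (adjusted p 4.26e-05) after IPPK. All 3 differences between knock-downs passed the test too, the smallest being 0.58 (adjusted p 0.00151) between DBP5 and IPPK.

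The other tested linker histones differed from H1-1 in size or direction. H1-2 measured 16.89, 17.02 and 16.98 on the control arrays, 16.96, 16.76 and 16.84 after DBP5, 17.36, 17.25 and 17.25 after GLE1 and 17.39, 17.28 and 17.31 after IPPK siRNA. It rose by 0.32 (SE 0.06, adjusted p 0.00127) after GLE1 and by 0.36 (adjusted p 6.81e-04) after IPPK, where its arrays lie above all controls, though by the methods' paired t-test with adjustment no H1 gene was higher in any knock-down. The difference after DBP5 was -0.11 (adjusted p 0.167), with overlap. The latter passed the test with normexp background (-0.15), with the authors' processed values (-0.16) and without DBP5 replicate 1 (-0.17). H1-3 fell by 0.31 after DBP5 siRNA and H1-4 by 0.37 after DBP5 and 0.26 after GLE1. The H1 median was -0.34, -0.11 and 0.01 in the order DBP5, GLE1, IPPK, and since H1-1 and H1-2 lie far to either side of it, it says little of any of the 4 genes.

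**Figure D3:**
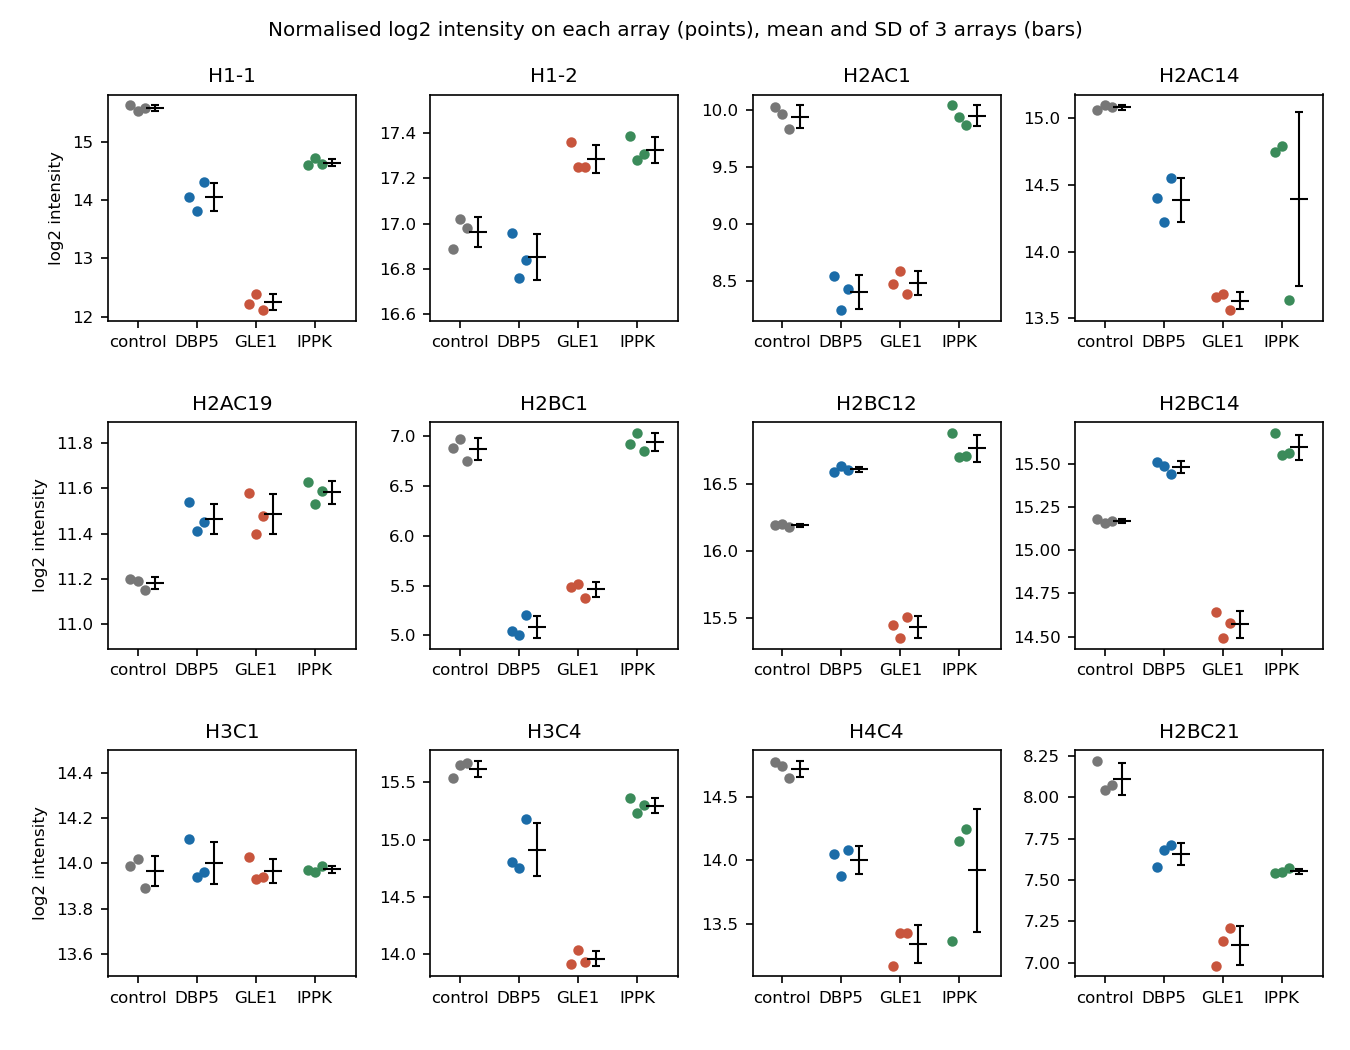
Points are the normalised log2 intensity of 12 members on each of the 3 arrays per siRNA (colour and horizontal axis), and the bars beside them are the mean and SD. H1-1 falls stepwise from control through IPPK and DBP5 to GLE1, H2BC12 and H2BC14 lie above control after DBP5 and IPPK and below it after GLE1, and H3C1 stays level; vertical scales differ between panels.

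Of the 14 tested H2A genes, 9 fell in all 3 knock-downs by limma (12.3% of all genes). However, by the methods' t-test with adjustment 4 H2A genes were lower after DBP5, 12 after GLE1 and 6 after IPPK. The share of all genes was not counted for the t-test. The 9 were H2AC4, H2AC6, H2AC12, H2AC13, H2AC14, H2AC15, H2AC17, H2AC20 and H2AC21. For H2AC17 and H2AC6 that rests on the brighter probe, since the second probe made no call for H2AC17 after DBP5 (-0.14, adjusted p 0.282) and IPPK (-0.16, adjusted p 0.206) and none for H2AC6 after IPPK (0.03, adjusted p 0.886). H2AC13 measured 11.65, 11.76 and 11.63 on the control arrays, 10.96, 10.94 and 11.04 after DBP5, 10.16, 10.24 and 10.04 after GLE1 and 11.37, 11.39 and 11.37 after IPPK siRNA, with no overlap between any groups. Its difference was -1.53 (SE 0.06, adjusted p 7.77e-09) after GLE1, -0.69 (adjusted p 4.10e-06) after DBP5 and -0.30 (adjusted p 0.00165) after IPPK. H2AC20, which had the largest H2A fall after IPPK siRNA, measured 14.43, 14.42 and 14.48 in control, 13.56, 13.42 and 13.72 after DBP5, 13.17, 13.53 and 13.47 after GLE1 and 13.74, 13.71 and 13.80 after IPPK. Every knock-down array lies below control. It fell by 0.70 (SE 0.10, adjusted p 1.46e-04) after IPPK siRNA, and by 0.88 and 1.06 after DBP5 and GLE1. H2AC8 was called lower after DBP5 and GLE1 siRNA, and H2AC7 after GLE1 only.

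H2AC19 was higher in every knock-down, the only 1 of the 62 members called so, as were 13.5% of all genes. It measured 11.20, 11.19 and 11.15 on the control arrays, 11.54, 11.41 and 11.45 after DBP5, 11.58, 11.40 and 11.48 after GLE1 and 11.63, 11.53 and 11.59 after IPPK siRNA. All knock-down arrays lie above all controls, and the knock-downs overlap one another. The rises were 0.29, 0.31 and 0.40 (SE 0.06, adjusted p 0.00170, 8.54e-04 and 1.64e-04). By the methods' t-test with adjustment no H2A gene was higher after DBP5 or GLE1 and 1 was after IPPK. H2AC18, its near-identical copy, has no probe of its own here, so this probe may read both.

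The H2B genes held more than 1 pattern, described here as seen in the data. H2BC3, H2BC5, H2BC9, H2BC10, H2BC12, H2BC14 and H2BC18 rose after DBP5 and IPPK siRNA and fell after GLE1 siRNA. These 7 are 11.3% of the members tested, no gene of another class shared the pattern, and 1.76% of all genes did. Since a probe may also read close copies of its gene, the 7 may not be separate measurements. Across the other processing settings and with each array left out, 5 to 7 of the 7 were called higher after DBP5 siRNA. After IPPK 6 to 7 were called higher, and after GLE1 all 7 were called lower. The 1.5-fold threshold is left out of these ranges, and by it 0 members were higher in any knock-down. The 7 were picked by their calls on the same arrays, so the ranges are no separate support. H2BC12, which had the largest rise, measured 16.19, 16.20 and 16.18 on the control arrays, 16.59, 16.63 and 16.60 after DBP5, 15.45, 15.35 and 15.51 after GLE1 and 16.88, 16.70 and 16.71 after IPPK siRNA. No groups overlap. It rose by 0.42 (SE 0.06, adjusted p 1.74e-04) after DBP5 and by 0.57 (adjusted p 1.65e-05) after IPPK, and fell by 0.75 (adjusted p 1.45e-06) after GLE1. Its second probe gave 0.25, 0.41 and -0.54, all past the test. The direct difference between GLE1 and IPPK siRNA was -1.32 (adjusted p 2.96e-08).

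Another 3 H2B genes fell in all knock-downs: H2BC7, H2BC15 and H2BC21. H2BC21 measured 8.22, 8.04 and 8.07 in control, 7.58, 7.68 and 7.71 after DBP5, 6.98, 7.13 and 7.21 after GLE1 and 7.54, 7.55 and 7.57 after IPPK siRNA. It fell by 0.45, 1.00 and 0.55 (SE 0.07, adjusted p 2.96e-04, 4.75e-07 and 6.36e-05), but its second, dimmer probe gave 0.73, 0.84 and -0.22, with the first 2 called higher, so its direction depends on the probe. H2BC4 rose after IPPK and fell after GLE1 siRNA. H2BC8, H2BC13 and H2BC17 were called lower after GLE1 siRNA only. With the replicate block, H2BC13 was also higher after DBP5 siRNA (0.16, adjusted p 0.0371) and H2BC17 after IPPK (0.13, adjusted p 0.0284).

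H2AC1 and H2BC1, neighbouring genes known for their expression in testis, fell far after DBP5 and GLE1 siRNA and were level after IPPK. H2AC1 measured 10.03, 9.97 and 9.84 on the control arrays, 8.54, 8.24 and 8.43 after DBP5, 8.47, 8.59 and 8.38 after GLE1 and 10.05, 9.94 and 9.87 after IPPK siRNA. H2BC1 measured 6.88, 6.97 and 6.75, then 5.04, 5.0 and 5.21, then 5.49, 5.52 and 5.38, then 6.92, 7.03 and 6.85. In both genes the IPPK arrays overlap control and the DBP5 and GLE1 arrays lie well below. H2AC1 fell by 1.55 after DBP5 and 1.47 after GLE1 (SE 0.09, adjusted p 2.09e-07 and 1.55e-07), and H2BC1 by 1.78 and 1.40 (SE 0.08, adjusted p 4.04e-08 and 1.01e-07). These were the largest falls after DBP5 siRNA in their classes. After IPPK siRNA the ratio to control was 1.00 (95% interval 0.875 to 1.15) for H2AC1 and 1.05 (0.924 to 1.18) for H2BC1. The difference between DBP5 and IPPK siRNA, tested directly, was -1.55 for H2AC1 (adjusted p 3.34e-07) and -1.85 for H2BC1 (adjusted p 5.65e-08). H1-4, H2AC8, H3C15 and H4C2 were the other members called lower after DBP5 and GLE1 and not after IPPK, which is 6 of 62 in all (9.68%) against 4.37% of all genes.

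The back-to-back arrangement allows a comparison of genes that share promoter DNA. By their strands in RefSeq, 10 neighbouring pairs of H2A and H2B members are transcribed away from each other, and the windows of each pair share 255 to 293 bases. In 9 pairs both genes were tested. The H2A gene was lower in 8 of the 9 after DBP5 siRNA, in 9 after GLE1 and in 6 after IPPK, and the H2B gene in 4, 9 and 3, where 27.1%, 30.4% and 28.2% of all genes were lower. Set side by side, the H2A difference was below that of its H2B neighbour in 7 of 9 pairs after DBP5, 8 after GLE1 and 7 after IPPK, with a median gap of 0.57, 0.23 and 0.22. The gap within a pair was not itself tested.

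H2AC14 and H2BC14, whose promoters are printed above, had the widest gap after DBP5 and IPPK siRNA, 1.00 and 1.12. H2BC14 measured 15.18, 15.16 and 15.17 on the control arrays, 15.51, 15.49 and 15.44 after DBP5, 14.64, 14.49 and 14.58 after GLE1 and 15.68, 15.55 and 15.56 after IPPK siRNA, without overlap between control and any knock-down. H2AC14 measured 15.06, 15.10 and 15.08 in control, 14.40, 14.22 and 14.55 after DBP5, 13.66, 13.68 and 13.56 after GLE1 and 14.75, 14.79 and 13.64 after IPPK. H2BC14 rose by 0.31 (adjusted p 6.20e-04) and H2AC14 fell by 0.69 (adjusted p 0.0376) after DBP5 siRNA. The low IPPK array 3 of H2AC14 widened the error of that gene in all comparisons. Without that array its difference after IPPK was -0.31 (adjusted p 0.0160) in place of -0.69, and that after DBP5 had an adjusted p of 5.94e-05. With single arrays left out in turn, the DBP5 call was lost in 8 of 12 fits and the IPPK call in 7. Both were lost with no filter on dim probes (adjusted p 0.0567 and 0.0557), and the IPPK call with only the 6 arrays compared (adjusted p 0.121). H2AC6 and H2BC4 also had opposite calls after IPPK siRNA (-0.36 and 0.34), but that of H2AC6 came from the brighter probe only and was lost without IPPK replicate 1 (-0.17, adjusted p 0.0732). In H2AC7 and H2BC7 it was the H2B gene that lay lower in all 3 knock-downs, by 0.66 after GLE1 siRNA.

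**Figure D4:**
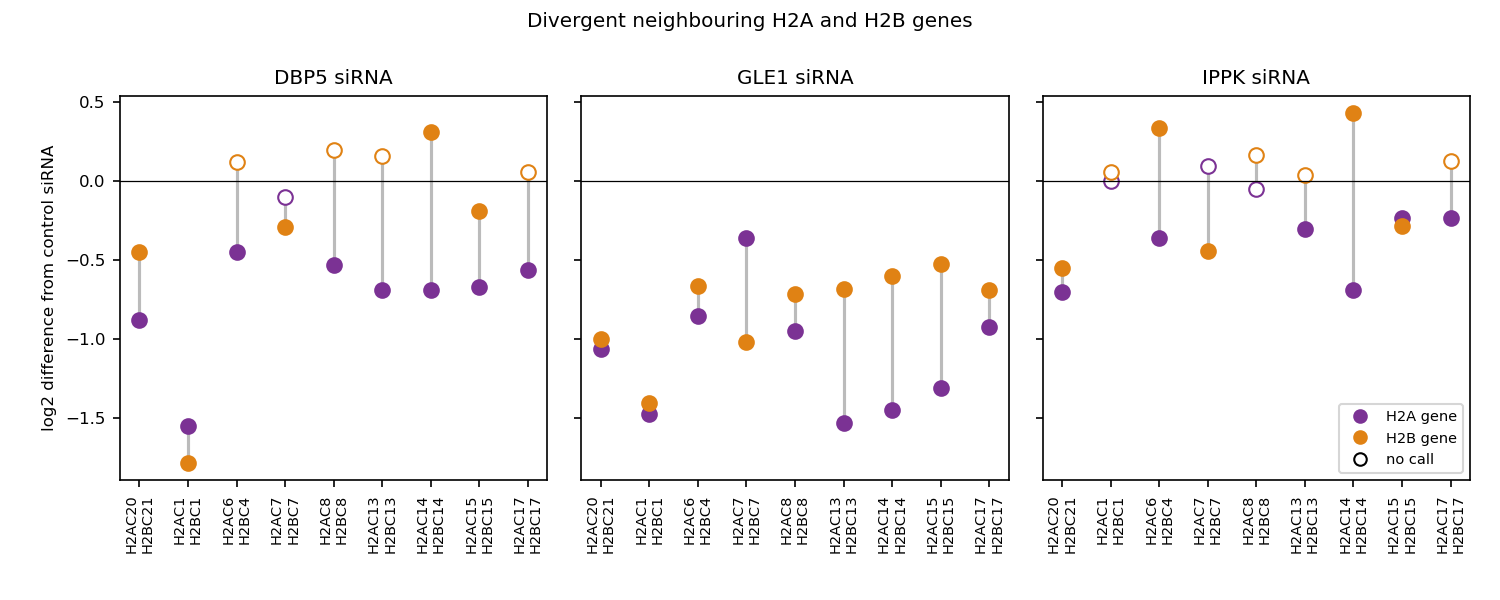
For each of 9 divergent pairs (horizontal axis), the log2 difference from control siRNA of the H2A gene (purple) and the H2B gene (orange), with open circles where there was no call. H2B lies above H2A in 7, 8 and 7 of the 9 pairs after DBP5, GLE1 and IPPK siRNA, and the H2AC14 and H2BC14 pair lies on both sides of 0 after DBP5 and IPPK.

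H2B genes with and without the octamer were found in both directions. Of 14 H2B genes with it, 6 were higher and 3 lower after DBP5 siRNA and 7 higher and 2 lower after IPPK. Of the 4 without it, 1 was higher and 1 lower in each, and of all genes 27.1% were lower and 27.3% higher after DBP5 and 28.2% and 27.3% after IPPK. Among the 7 H2B genes that rose after DBP5 and IPPK and fell after GLE1, H2BC5 alone lacks it in this window. The same letters stood before 9 tested H2A genes, of which 8, 9 and 6 were lower after DBP5, GLE1 and IPPK siRNA and 0 were higher by limma. Of 3 tested H2A genes whose window lacks the octamer, 2 were lower and 1 higher in each knock-down. After GLE1 siRNA 30.4% of all genes were lower and 32.0% higher.

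Of the 12 H3 genes, 10 fell in all knock-downs by limma (12.3% of all genes). However, by the methods' t-test with adjustment 1 H3 gene was lower after DBP5, 10 after GLE1 and 5 after IPPK. No all-gene share was counted for the t-test. The 10 were H3C2, H3C3, H3C4, H3C6, H3C7, H3C8, H3C10, H3C11, H3C12 and H3C13. H3C4 measured 15.54, 15.65 and 15.67 on the control arrays, 14.81, 14.75 and 15.18 after DBP5, 13.92, 14.04 and 13.93 after GLE1 and 15.36, 15.23 and 15.30 after IPPK siRNA, with no overlap. It fell by 1.66 (SE 0.10, adjusted p 1.83e-07) after GLE1, 0.71 (adjusted p 1.70e-04) after DBP5 and 0.33 (adjusted p 0.0195) after IPPK, and the last call was lost in 3 of 12 fits that left out an array (adjusted p up to 0.0650). H3C11 measured 10.25, 10.32 and 10.35 in control, 9.28, 9.64 and 9.81 after DBP5, 9.28, 9.40 and 8.50 after GLE1 and 9.60, 9.55 and 9.96 after IPPK siRNA. All its knock-down arrays lie below control and are widely spread. It fell by 0.73 after DBP5 (SE 0.22, adjusted p 0.0176), by 1.25 after GLE1 (adjusted p 5.80e-04) and by 0.60 after IPPK (adjusted p 0.0405), the IPPK call was lost with the replicate block (adjusted p 0.0563), and it was lost in 6 of the 12 fits (adjusted p up to 0.117) and with no filter on dim probes. The DBP5 call was lost in 1 of the 12, without DBP5 replicate 1 (-0.58, adjusted p 0.0694). H3C15 fell after DBP5 and GLE1 siRNA. H3C10 fell by 0.65, 1.43 and 0.29 by its brighter probe, while the dimmer gave -0.27, -0.37 and 0.35, the last called higher.

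H3C1, an H3 gene of HIST1 that was singled out after its values were seen, was level. It measured 13.99, 14.02 and 13.89 on the control arrays, 14.11, 13.94 and 13.96 after DBP5, 14.03, 13.93 and 13.94 after GLE1 and 13.97, 13.96 and 13.99 after IPPK siRNA, and all groups overlap. The ratios to control were 1.02 (95% interval 0.933 to 1.12) after DBP5, 1.00 (0.911 to 1.10) after GLE1 and 1.00 (0.914 to 1.10) after IPPK. The median H3 gene lay at 0.679, 0.457 and 0.825 of control in the same order.

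Every tested H4 gene fell after GLE1 siRNA, 14 of 14, against 30.4% of all genes. By limma 11 were lower after DBP5 and 12 after IPPK, against 27.1% and 28.2% of all genes. By the methods' t-test with adjustment, whose all-gene share was not counted, 12 were lower after GLE1, 4 after DBP5 and 4 after IPPK. In all knock-downs 10 fell, against 12.3% of all genes: H4C1, H4C3, H4C4, H4C6, H4C8, H4C9, H4C11, H4C12, H4C13 and H4C15. H4C4, with the largest fall in each knock-down by the brightest probes and over all arrays, measured 14.77, 14.74 and 14.65 on the control arrays, 14.05, 13.88 and 14.08 after DBP5, 13.17, 13.43 and 13.43 after GLE1 and 13.37, 14.15 and 14.25 after IPPK siRNA. All knock-down arrays lie below control. It fell by 0.72 (SE 0.19, adjusted p 0.00907), 1.38 (adjusted p 1.02e-04) and 0.80 (adjusted p 0.00500), and without IPPK array 1 the last value was -0.52 (adjusted p 0.00143), which is less than the fall of H4C16 by 0.76. Its second probe gave -0.76, -1.03 and -0.43, and after GLE1 siRNA the second probes of H4C1 and H4C13 gave -1.67 and -1.64. H4C7 and H4C16 passed after GLE1 and IPPK siRNA, H4C2 after DBP5 and GLE1, and H4C5 after GLE1 only. With the replicate block H4C7 also passed after DBP5 siRNA (adjusted p 0.00543).

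Members that passed in none of the comparisons with control were H3C1, H2BC6, H2BC11, H2BC26 and the pseudogene H2AC2P. The differences of H2BC11 were -0.07, -0.10 and 0.02, those of H2BC6 -0.10, -0.21 and 0.16, and those of H2BC26 -0.16, -0.40 and -0.07 with an SE of 0.31. With the replicate block H2BC26 (adjusted p 0.0105) and H2BC6 (adjusted p 0.0399) were lower after GLE1 siRNA. H2AC2P measured 4.21, 4.45 and 4.39 in control and was well above background on 9 of the 12 arrays. For 9 members 2 probes were tested, which gives 27 comparisons with control, and both probes made the same call in 20 of them and opposite calls in 3. Histone genes of a class are close copies of one another, the probe sequences were not analysed here, and a probe may read more than its own gene.

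Of 29 tested factors that make and remove histone mRNA, 6 were lower (20.7%) and 11 higher (37.9%) after DBP5 siRNA, 14 (48.3%) and 12 (41.4%) after GLE1, and 7 (24.1%) and 9 (31.0%) after IPPK, against the 27.1% to 32.0% of all genes called in either direction in these comparisons. SLBP, the stem-loop binding protein, measured 14.04, 14.08 and 13.70 in control, 12.94, 12.93 and 12.78 after DBP5, 12.27, 12.27 and 12.26 after GLE1 and 13.06, 13.13 and 13.11 after IPPK siRNA. All knock-down arrays lie below control, and the fall was 1.06, 1.67 and 0.84. NPAT, which drives histone transcription, fell by 0.56 and 0.89 after DBP5 and GLE1, and its difference was 0.18 after IPPK (adjusted p 0.123). CASP8AP2 (FLASH), which joins the processing machinery to the mRNA, fell by 0.42, 0.92 and 0.36. Of the U7 particle's own proteins LSM11 fell by 0.87, 0.61 and 0.63, and LSM10 rose by 0.35 and 0.69 after DBP5 and GLE1 with a difference of 0.09 after IPPK. ZNF473 (ZFP100), a U7-associated zinc finger protein, rose by 0.81, 1.15 and 0.57.

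On the side of export, translation and turnover, MIF4GD (SLIP1) rose by 0.47 after DBP5 siRNA, and its differences after GLE1 and IPPK were -0.19 (adjusted p 0.0643) and 0.18 (adjusted p 0.0825). NCBP2, the small subunit of the cap-binding complex, fell by 1.10 after DBP5 and by 0.21 after GLE1 siRNA, whereas NCBP1, the large subunit, rose by 0.92, 1.02 and 0.82. LSM1, of the ring that binds the uridylated 3' end in histone mRNA decay, rose in all knock-downs, by 1.32, 1.60 and 0.99, from 13.65, 13.63 and 13.63 in control to 15.24, 15.24 and 15.25 after GLE1 siRNA. ERI1, a nuclease that trims the stem-loop, rose by 0.37 and 0.36 after GLE1 and IPPK, and its difference after DBP5 was 0.03. UPF1, a helicase needed for histone mRNA decay, rose by 0.27 after GLE1 siRNA, with differences of -0.02 and 0.02 after DBP5 and IPPK. Not all turnover factors rose, since EXOSC10, a nuclease of the nuclear exosome, fell by 1.11 after GLE1 and TUT4, a terminal uridylyltransferase, by 0.77 and 0.51 after GLE1 and IPPK.

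Histone chaperones, which carry new histones to DNA, had 10, 15 and 12 of 22 genes lower and 2, 4 and 4 higher after DBP5, GLE1 and IPPK siRNA, where 27.1%, 30.4% and 28.2% of all genes were lower and 27.3%, 32.0% and 27.3% higher. The paralogues ASF1A and ASF1B, which hand H3 and H4 to the assembly factors, went opposite ways. ASF1B measured 11.80, 11.81 and 11.96 in control and 9.78, 9.85 and 9.84 after GLE1 siRNA, and fell by 0.61, 2.03 and 0.93 in the order DBP5, GLE1, IPPK. ASF1A measured 6.28, 6.50 and 6.53 in control and 7.61, 7.78 and 7.70 after GLE1, and rose by 0.71, 1.26 and 0.83. DNAJC9, a chaperone of H3 and H4, fell by 1.11, 1.08 and 2.26, the last being the largest fall of the list after IPPK siRNA. CABIN1, of the HIRA complex, rose by 0.77 after DBP5 siRNA, the largest rise of the list there.

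Replacement histones, which are made outside S phase as well, gave 7, 7 and 7 of 15 genes lower (46.7%, with all genes as above) and 2, 1 and 1 higher after DBP5, GLE1 and IPPK siRNA. H2AX, whose gene yields both stem-loop and polyadenylated mRNA, fell by 0.42, 1.19 and 0.70, and CENPA, the H3 of the centromere, by 0.87, 2.13 and 0.63. Of the genes that encode H3.3, H3-3B fell by 0.53, 0.71 and 0.38 and H3-3A had differences of 0.09, 0.08 and 0.05, with no call. H2AZ1 fell by 0.37, 0.50 and 0.14. The linker histone H1-10 fell by 0.45, 0.38 and 0.75. MACROH2A2 rose by 1.16, 0.85 and 0.80. H3-4, the testis H3 of the HIST3 cluster, fell by 0.29, 0.37 and 0.23.

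S phase genes fell alongside the histones. Of 22, 20 were lower after DBP5 siRNA, 21 after GLE1 and 20 after IPPK (27.1%, 30.4% and 28.2% of all genes), and 1, 0 and 2 were higher, with 0 after GLE1 also at an unadjusted p under 0.05. They had medians of -0.77, -1.61 and -0.61, and their part in the histone values was not tested. The order of the medians, GLE1, DBP5, IPPK, is that of the histone members. E2F2, a transcription factor of the G1 to S step, had the largest fall in each knock-down. Its differences were -2.62, -4.32 and -1.98. CDC6, which loads the replicative helicase, rose by 1.07 and 1.21 after DBP5 and IPPK siRNA and had a difference of -0.04 after GLE1 (adjusted p 0.782).

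**Figure D5:**
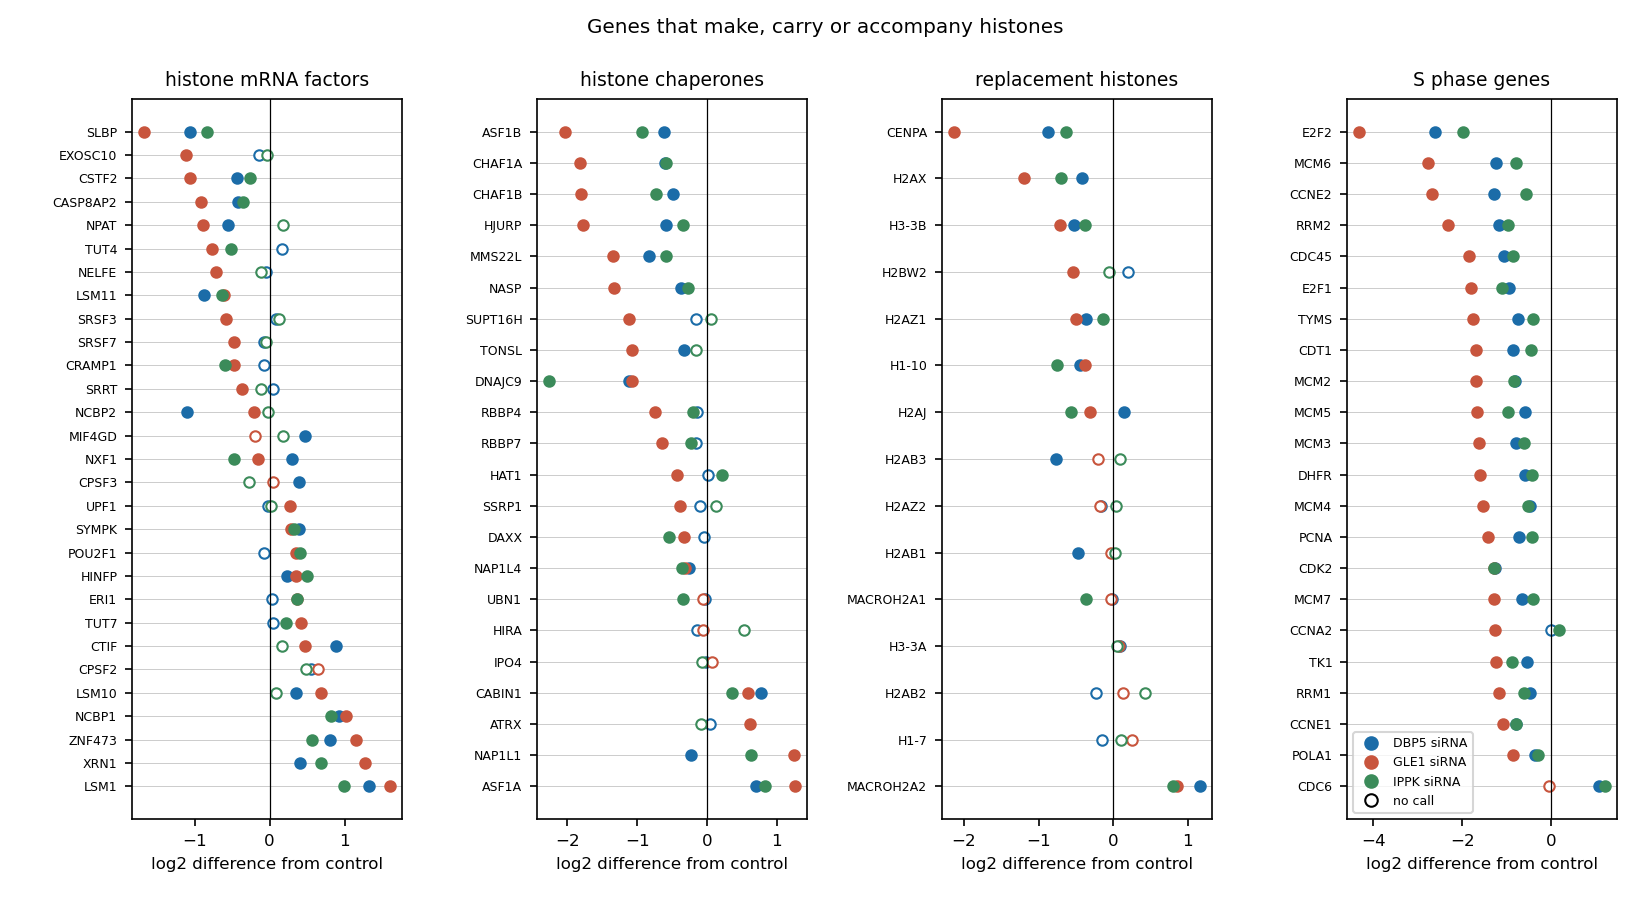
Log2 difference from control siRNA (horizontal axis) of each tested gene of 4 lists (rows, ordered by GLE1), with the knock-down in colour and open circles where there was no call. SLBP falls by 1.67 and LSM1 rises by 1.60 after GLE1 siRNA, ASF1B and ASF1A lie at opposite ends of the chaperones, and 21 of 22 S phase genes are lower after GLE1.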

How the data were processed

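Cytoplasmic RNA was labelled with Cy3 by a whole-transcript kit and measured on 12 arrays (4x44K v2), 3 per siRNA. How evenly that kit labels mRNA without a poly(A) tail was not tested. The authors deposited the Feature Extraction 10.7.3.1 output of every array, in which a spot has a background-subtracted intensity on a linear scale and flags that mark outliers, saturation and signal well above background. A second deposited table holds log2 values that the authors had normalized by LOESS regression in R. Its columns correlated across probes with log2 median spot intensities before subtraction (Pearson's r of 0.9998 or more) and less with those after it (0.9612 to 0.9666).

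The background-subtracted intensities were put on the log2 scale, outlier and control spots were left out, arrays were normalized by cyclic loess, and replicate spots were averaged. No spot was saturated. Names were given through accessions in RefSeq (GRCh38.p14, while the design file is on hg19) to 26449 of 34127 probes (77.5%). The other probes kept their accession as a name, and the brightest probe of each name stood for a gene. Another 18 symbols that fit the rule, 5 of them protein coding, have no named probe. limma 3.58.1 in R 4.3.3 fitted 1 mean per siRNA over the 12 arrays, without a block, after recovery of changes had been checked on simulated data. Each of the 3 slides was scanned once and carried the 4 siRNAs of 1 replicate number. Arrays with the same number deviated together (correlation of deviations from the group means from 0.315 to 0.544 over 18 pairs, against -0.333 to -0.0162 over 36 pairs with different numbers), so the numbers pair the arrays. Deviations cancel out within a group, so the negative values follow from the positive ones. The main fit leaves this pairing out, and the replicate block is given as an alternative. Rank products, which the study used, were not run. The number of arrays and the signal over background limit the precision.

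Members and gene lists were chosen with earlier results of these data known. Values on every array are given for the largest fall and rise in each class and knock-down among called members well above background on all 12 arrays, and for H3C1, H2AC14 and H2BC14. Those 3 genes, the H2B pattern and the pair and motif counts were picked once values had been seen. From each other list the largest fall and rise and preset factors are named. A gene of the replacement histone list is not reported here. Alternatives were 75th percentile scaling, quantile normalization, normexp background with an offset of 50, the processed table, other filters, probe rules and samples, the replicate block, single arrays left out, and the methods' paired t-test. Figures were drawn with matplotlib 3.10.9.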

Additional observations from a re-analysis of the deposited data

How the results depend on the processing

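Of 300 recomputed counts of members called lower or higher, 283 stayed within 1.5 times the reported count. The methods' paired t-test with adjustment gave 11 members lower after DBP5 siRNA than control, 19 lower after IPPK, 0 higher after GLE1, 14 higher after DBP5 than GLE1 and 9 lower after DBP5 than IPPK. At a threshold of 1.5-fold with no test, 21 were lower and 0 higher after DBP5, 6 lower and 0 higher after IPPK and 0 higher after GLE1. Between knock-downs 25 were higher and 0 lower after DBP5 than GLE1, and 2 lower and 0 higher after DBP5 than IPPK. All-gene shares were not counted for the t-test, nor at 1.5-fold between knock-downs. With the mean of a gene's probes, 2 were higher after DBP5 than IPPK and 1 after GLE1 than IPPK. Leaving out single arrays moved the number higher after DBP5 than IPPK between 1 and 3 (3 without DBP5 replicate 2), and changed no other of these counts by over 1.5 times. With the replicate block 41 and 9 were lower and higher after DBP5, 56 and 2 after GLE1 and 34 and 12 after IPPK, and no count changed by over 1.5 times. In that fit 1 call against control was lost and 6 were gained, each given beside its gene. Among class medians and the genes given on every array, these values changed sign. The H1 median after IPPK was -0.04 with 75th percentile scaling, -0.01 with normexp, -0.03 with the processed table, -0.15 with no filter and -0.08 within slide 3, and after GLE1 it was 0.03 within slide 1; single arrays left out moved the former between -0.03 and 0.06. H2AC1 after IPPK was -0.01 with 75th percentile scaling, 0.00 with quantile normalization and -0.03 with the processed table, and between -0.05 and 0.05 with single arrays left out. H2BC1 after IPPK was -0.06, and H3C1 0.00, -0.02 and -0.05 after DBP5, GLE1 and IPPK, with 75th percentile scaling, and without single arrays H3C1 ran from -0.02 to 0.07, -0.04 to 0.03 and -0.04 to 0.03. H2BC21 with the mean of its probes was 0.14 after DBP5 and kept its sign but lost its call at -0.08 after GLE1. The cause of these changes was not tested.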
